A study of Mus musculus with 8 samples.

Results

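The 32 genes described here mark oligodendrocytes and the myelin they make. They were taken by gene symbol from a table of 19884 genes, and all 32 were found, each in a single row. RNA was measured in whole uterus (4 libraries) and whole brain (4 libraries) of pregnant wild-type C57BL/6J females, 6 to 10 weeks old, untreated, on day 4 of gestation, with the day of the vaginal plug counted as day 1. Each organ had 4 mice, total RNA was depleted of ribosomal RNA, and each library came from 1 animal. Whole organs hold many cell types, neither organ has samples from females that were not pregnant, and the labels do not say whether a uterus and a brain with the same number came from the same mouse.

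Oligodendrocytes are the glial cells that wrap axons of the central nervous system in myelin, a multilayered membrane rich in galactolipids and in a few abundant proteins. Their identity is set by the transcription factors Olig1, Olig2 and Sox10, and Myrf switches on the myelin genes as the cells mature. In peripheral nerves the same task falls to Schwann cells, which also make Sox10, Mbp, Mag and Pmp22.

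Library totals ran from 35394603 to 40254254 counts in uterus and from 40115616 to 47790178 in brain. Levels are CPM, counts relative to library totals that were scaled by the trimmed mean of M values (TMM). A count of 0 allows up to 3 counts, which equal 0.0699 to 0.0761 CPM in a uterus library. The labelled organs were checked against marker lists. All 6 uterine defining genes, such as Hoxa10 at 364 CPM in uterus and 0.0234 CPM in brain, were higher in uterus, and all 8 neuronal genes, such as Snap25 at 0.552 CPM in uterus and 2411 CPM in brain, were higher in brain. All 12 epithelial genes were higher in uterus.

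Of the 32 genes, 31 were higher in brain and 1, Pmp22, was higher in uterus, by the edgeR quasi-likelihood test with an adjusted p under 0.05 over 16074 genes tested. Among all genes tested, 87.0% passed in either direction, 43.6% were higher in brain and 43.5% higher in uterus by the same rule. The same 31 and 1 also passed a test against a 2-fold change, which 49.3% of all genes passed in either direction, 25.8% toward brain and 23.5% toward uterus. The 4 brain libraries lay above all 4 uterus libraries for 31 members, against 42.0% of all genes, and below them for Pmp22, again against 42.0%. The median log2 fold change (uterus over brain) was -6.69 for the members and 0.01 for all genes tested. In whole organs, fewer cells of a type and less RNA per cell cannot be told apart.

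The size of the difference covered a wide range. The uterine level was under 1% of the brain level for 16 members, from 1% to 15% for 9, from 15% to 50% for 6, and 496% for Pmp22. With detection set at 1 CPM in each of an organ's 4 libraries, 16 of the 32 members were detected in uterus and all 32 in brain, as were 67.1% of all genes in uterus and 69.5% in brain. Together the members took 0.0743% to 0.0830% of uterus counts and 0.884% to 0.911% of brain counts. In uterus Pmp22 alone gave 21.6% of the members' counts, while in brain Mbp gave 32.3%, and Mbp, Mobp and Gpm6b together gave 56.7%.

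**Figure D1:**
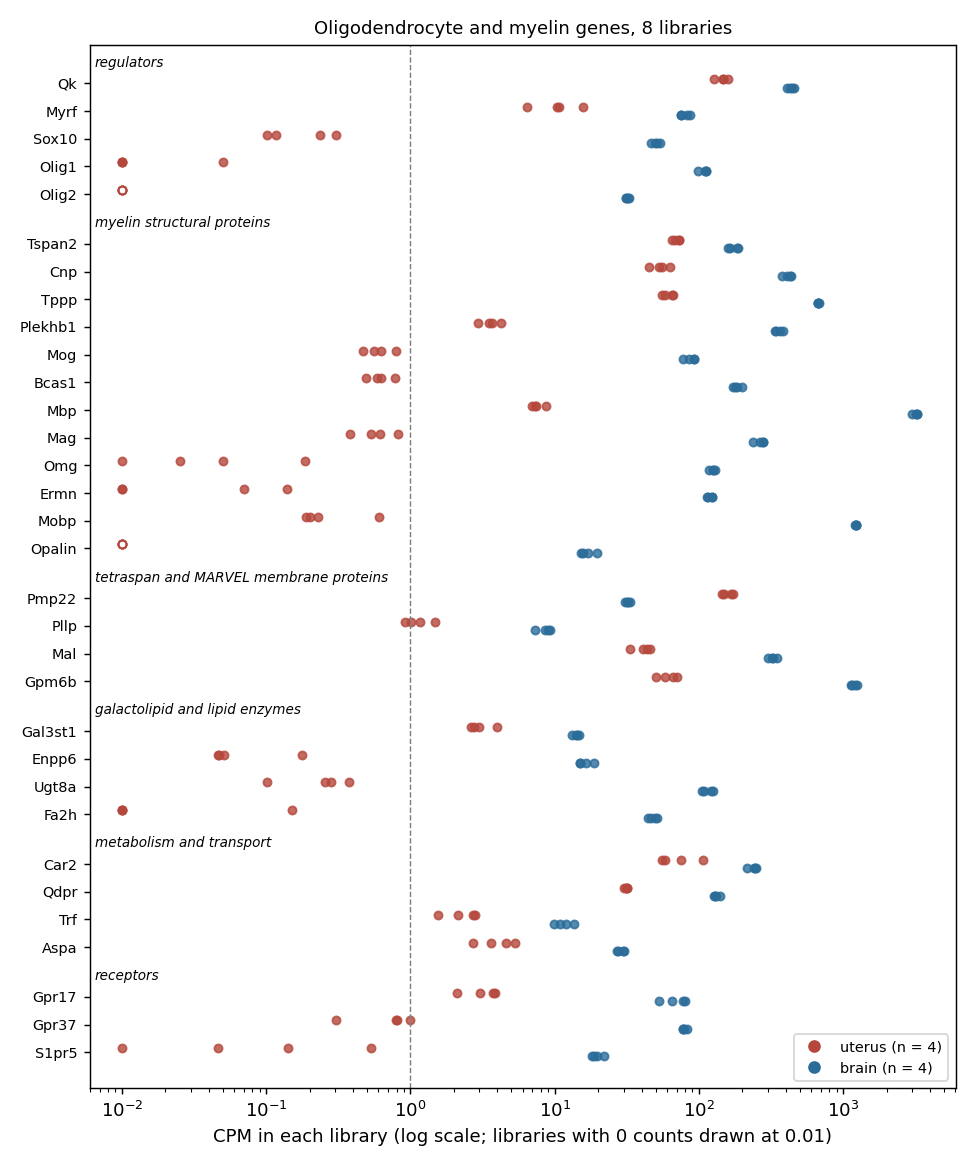
CPM of each of the 32 genes in each uterus library (red) and brain library (blue) on a log axis, grouped by role, with libraries at 0 counts drawn at 0.01, open circles where all 4 are at 0, and a dashed line at 1 CPM. Brain libraries lie to the right of uterus libraries for every gene but Pmp22.

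The sequence before annotated starts was read for members at both ends of this range. RefSeq promoter sequences on GRCm38.p6 were found for 22 of the 32 members, with 31 start sites, and the 250 bases before each start were used. In 13 windows of 10 members no base lies in an exon of the GENCODE M21 annotation. Of these 10 members, the 3 with the lowest uterine level relative to brain (Opalin, Ermn and Ugt8a) and the 3 with the highest (Aspa, Gal3st1 and Pmp22) are shown, so that the CpG content of the ends can be seen. Capitals mark CpG dinucleotides, and each sequence runs 5′ to 3′ on the strand of its gene: Opalin at chr19:41077114-41077363 (minus strand), Ermn at chr2:58052865-58053114 (minus), Ugt8a at chr3:125938653-125938902 (minus), Aspa at chr11:73324638-73324887 (minus), Gal3st1 at chr11:3983386-3983635 (plus) and Pmp22 at chr11:63132319-63132568 (plus). For genes with several such windows the one with the most CpGs is given. The windows of Aspa and Pmp22 lie before starts within the GENCODE genes, not before their outermost start. Those genes span chromosome 11, 73304992 to 73329596 (Aspa) and 63128982 to 63159547 (Pmp22).
Opalin: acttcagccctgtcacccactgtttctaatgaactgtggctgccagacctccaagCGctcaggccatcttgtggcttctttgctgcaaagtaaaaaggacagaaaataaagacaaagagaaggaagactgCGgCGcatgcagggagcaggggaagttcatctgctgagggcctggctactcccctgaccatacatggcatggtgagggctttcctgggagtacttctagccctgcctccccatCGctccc
Ermn: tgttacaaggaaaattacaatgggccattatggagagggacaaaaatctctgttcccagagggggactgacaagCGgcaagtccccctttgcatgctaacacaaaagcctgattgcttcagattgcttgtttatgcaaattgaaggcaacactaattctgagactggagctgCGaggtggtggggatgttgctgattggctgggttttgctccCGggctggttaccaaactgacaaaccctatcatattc
Ugt8a: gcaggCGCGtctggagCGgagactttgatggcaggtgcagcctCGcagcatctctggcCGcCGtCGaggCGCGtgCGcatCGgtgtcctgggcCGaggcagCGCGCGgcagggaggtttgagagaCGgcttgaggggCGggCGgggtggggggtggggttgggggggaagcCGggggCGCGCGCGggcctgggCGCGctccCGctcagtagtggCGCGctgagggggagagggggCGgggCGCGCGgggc
Aspa: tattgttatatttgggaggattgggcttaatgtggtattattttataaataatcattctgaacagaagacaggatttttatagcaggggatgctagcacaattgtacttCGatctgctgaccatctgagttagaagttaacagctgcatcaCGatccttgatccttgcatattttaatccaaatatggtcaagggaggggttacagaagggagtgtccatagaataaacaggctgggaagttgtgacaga
Gal3st1: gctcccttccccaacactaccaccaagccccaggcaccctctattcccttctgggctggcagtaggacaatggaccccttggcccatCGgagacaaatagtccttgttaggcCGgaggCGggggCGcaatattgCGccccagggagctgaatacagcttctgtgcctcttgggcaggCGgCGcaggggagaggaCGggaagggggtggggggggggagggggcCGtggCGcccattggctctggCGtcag
Pmp22: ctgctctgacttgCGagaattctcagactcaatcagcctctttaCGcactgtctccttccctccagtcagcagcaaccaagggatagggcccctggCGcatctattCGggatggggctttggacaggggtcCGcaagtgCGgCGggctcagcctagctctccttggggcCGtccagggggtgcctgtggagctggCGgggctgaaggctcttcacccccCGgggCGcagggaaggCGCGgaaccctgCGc

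Opalin, Ermn and Ugt8a held 4, 3 and 32 CpGs in these windows, and Aspa, Gal3st1 and Pmp22 held 2, 11 and 14, where the median over all 32851 windows in the RefSeq table was 6. Over the 22 members, taking for each the window with the most CpGs, the 11 detected in uterus at 1 CPM or more in all 4 libraries had a median of 15 CpGs (range 2 to 52) and the 11 not detected had a median of 4 (range 2 to 32). The ranges overlap: Ugt8a (32 CpGs), Olig2 (22) and S1pr5 (22) were not detected in uterus, and Aspa (2) and Plekhb1 (5) were. Taking the window with the most CpGs can raise the value of members with several windows. Among those detected, Pmp22 (4 windows), Gal3st1 (3), Plekhb1 (2) and Tspan2 (2) held 3, 2, 1 and 12 CpGs in their lowest window. Among those not detected only Mag had several windows, 3, with 2 to 3 CpGs. No test was made of the difference between the medians.

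Motifs of the lineage factors were searched on both strands of the same windows. The SOX motif ACAAAG was in 8 of the 31 member windows and in 16.5% of all windows, and ACAATG was in 5 of 31 and in 10.7%. The MYRF motif CTGGNAC was in 7 of 31 and in 16.1%, and the E-box CAGCTG was in 1 of 31 and in 13.0%. Windows of 1 gene can overlap, and a match describes only these letters.

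The genes that set up the lineage ran from 0 uterine counts to a level of 33.4% of brain. All 5 regulators were higher in brain, with a median log2 fold change of -8.03. Olig2, the basic helix-loop-helix factor that specifies oligodendrocytes (ENSMUSG00000039830, GRCm38 chromosome 16, 91225457 to 91228677), had 0 counts in all 4 uterus libraries and 31.4, 32.4, 31.4 and 32.9 CPM in brain libraries 1 to 4. Its brain level was therefore at least 1756-fold higher than the limit of 3 counts over the 4 uterus libraries together. Its neighbour Olig1 (ENSMUSG00000046160, chromosome 16, 91269772 to 91271933), which acts in oligodendrocyte maturation, had 2 counts in uterus library 1 and 0 in the other uterus libraries, and stood at 97.7, 110.0, 112 and 111 CPM in brain. The ratio of brain to uterus was 8884, with an exact 95% interval of 2459 to 73360 that covers counting error only, and without uterus library 1 no uterine count of Olig1 was left. A lincRNA on the opposite strand covers 7.3% of the exon length of Olig1.

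Sox10, a factor that oligodendrocytes share with Schwann cells (ENSMUSG00000033006, chromosome 15, 79154908 to 79165240), had 4, 10, 12 and 5 counts in uterus libraries 1 to 4, or 0.101, 0.235, 0.304 and 0.117 CPM, and 49.7, 50.8, 53.7 and 46.6 CPM in brain. It was present in every uterus library, at 0.377% of its brain level, and its log2 fold change was -8.03 ± 0.18 (SE; edgeR adjusted p = 5.69e-11). Of its relatives, Sox8 stood at 1.11 ± 0.415 CPM in uterus (SD, n = 4) and 40.8 to 52.7 in brain, and Sox9 at 21.2 ± 14.7 CPM in uterus and 28.9 ± 1.64 in brain (log2 fold change -0.44 ± 0.44, edgeR adjusted p = 0.357). The difference of Sox9 did not pass the test, and its uterus libraries 1 to 4 lay far apart, at 7.1, 38.1, 10.8 and 28.9 CPM.

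Myrf, the membrane-bound factor that drives myelin genes (ENSMUSG00000036098, chromosome 19, 10208272 to 10240748), was well measured in both organs. It stood at 10.7, 10.3, 15.6 and 6.46 CPM in uterus libraries 1 to 4 and at 74.7, 82.2, 86.8 and 74.6 CPM in brain, with a log2 fold change of -2.89 ± 0.21 (edgeR adjusted p = 4.3e-07). Uterus library 3 held more than 2 times the level of uterus library 4, whereas the brain libraries lay close together. Qk, an RNA-binding protein that controls splicing and export of myelin transcripts (ENSMUSG00000062078, chromosome 17, 10202601 to 10319854), stood at 146, 128, 146 and 159 CPM in uterus and 453, 425, 410.4 and 444 CPM in brain (-1.58 ± 0.07, edgeR adjusted p = 8.47e-09). It differed least of the 5 regulators.

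All 12 structural proteins of myelin were higher in brain, with a median log2 fold change of -8.45, and 7 of them averaged under 1 CPM in uterus. Mbp, which binds the cytoplasmic faces of the myelin membrane together (ENSMUSG00000041607, chromosome 18, 82475146 to 82585637), stood at 7.30, 7.41, 8.65 and 6.99 CPM in uterus and 2983, 3231, 3201 and 3258 CPM in brain, a log2 fold change of -8.71 ± 0.10 (edgeR adjusted p = 3.03e-12). The uterine counts of Mbp, 290 to 341 per library, were even between animals, with a coefficient of variation of 9.60%. Mobp, a small basic protein of compact myelin (ENSMUSG00000032517, chromosome 9, 120149707 to 120181484), had 8, 8, 9 and 26 counts in uterus, or 0.201, 0.188, 0.228 and 0.606 CPM, and 1229, 1223, 1228 and 1213 CPM in brain (-11.94 ± 0.27, edgeR adjusted p = 5.47e-11). Relative to brain, the uterine level of Mbp was 0.239% and that of Mobp 0.0250%.

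Uterus library 4 stood apart for Mobp, and the summed counts of the 8 neuronal genes were also highest there, at 366, 418, 435 and 576 in uterus libraries 1 to 4. Of these 8 genes, 5 were highest in uterus library 4 and 3 in uterus library 3. Snap25, a synaptic gene, had 9, 14, 11 and 59 counts, whereas Rbfox3, a splicing factor of neurons, stood at 1.01, 1.67, 1.75 and 0.932 CPM and was lowest in library 4. Summed levels of the list were 9.21 to 13.4 CPM in uterus and 6794 to 7019 CPM in brain. The 15 members with a mean under 1 CPM in uterus summed to 3.42, 3.86, 3.37 and 4.22 CPM. Neuronal genes stood in uterus at 0.0160% to 1.49% of their brain level, a range that holds 13 of the 16 members under 1%; Olig1 lay below it, at 0.0117%, and Olig2 and Opalin had no uterine count. The part that shared traces have in these low uterine values was not tested.

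The surface proteins of myelin were below 1 CPM in uterus. Mag, the adhesion protein of the innermost wrap that binds the axon, stood at 0.529, 0.611, 0.380 and 0.816 CPM in uterus and 236, 279, 276 and 263 CPM in brain (-8.80 ± 0.15). Mog, an immunoglobulin-like protein of the outermost layer, stood at 0.629, 0.799, 0.558 and 0.466 CPM in uterus and 77.0, 92.8, 85.8 and 93.0 CPM in brain (-7.14 ± 0.13). Mog reached 0.703% of its brain level in uterus, and its 20 to 34 counts per uterus library did not peak in library 4. Omg, an inhibitor of neurite outgrowth that lies within an intron of Nf1 on the opposite strand, had 2, 0, 1 and 8 uterine counts and 118 to 129 CPM in brain, and its log2 fold change of -10.80 moved to -12.12 without uterus library 4.

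Opalin, Ermn and Bcas1 mark cells that are about to make or are making myelin. Opalin, a sialylated membrane protein of the paranode (ENSMUSG00000050121, chromosome 19, 41061710 to 41077113), had 0 counts in all 4 uterus libraries and 16.9, 15.2, 15.8 and 19.5 CPM in brain, at least 926-fold higher. Ermn, a cytoskeletal protein of mature oligodendrocytes, had 0, 3, 0 and 6 uterine counts and 124, 114, 123 and 115 CPM in brain, and its log2 fold change of -11.01 ± 0.25 moved to -12.05 without uterus library 4. Bcas1, a marker of newly myelinating cells, had 21 to 31 counts in every uterus library, 0.622 ± 0.120 CPM, against 183 ± 11.1 CPM in brain (-8.20 ± 0.11). Bcas1 was thus counted in all 4 uterus libraries, Ermn in 2 and Opalin in none. Exons on the opposite strand, of Galnt5 and of an antisense gene, cover 6.5% of Ermn and 11.7% of Bcas1.

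The remaining 4 structural members were above 1 CPM in every uterus library. Cnp, the cyclic nucleotide phosphodiesterase that keeps cytoplasmic channels open in myelin (ENSMUSG00000006782, chromosome 11, 100574904 to 100591729), stood at 55.5, 53.1, 45.0 and 62.7 CPM in uterus and 374, 434, 409 and 428 CPM in brain (-2.93 ± 0.10, edgeR adjusted p = 1.17e-09), and Dnajc7 on the opposite strand covers 4.2% of its exon length. Tppp, which bundles microtubules in oligodendrocytes, stood at 65.0, 55.6, 65.9 and 57.8 CPM in uterus and 670.1, 672, 671 and 678 CPM in brain (-3.46 ± 0.07). The brain libraries of Tppp differed by less than those of any other member, with a coefficient of variation of 0.528%. Its relative Tppp3 went the other way, at 126 ± 19.9 CPM in uterus and 54.9 ± 3.58 in brain (1.20 ± 0.11).

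Tspan2, a tetraspanin of early myelinating cells, was the member with the smallest difference toward brain. It stood at 72.8, 65.2, 72.3 and 68.6 CPM in uterus and 165, 182, 159.9 and 187 CPM in brain, a log2 fold change of -1.32 ± 0.06 (edgeR adjusted p = 1.57e-08). It passed the 2-fold test (adjusted p = 0.00015), and that call ended with upper-quartile scaling (log2 fold change -1.06, adjusted p = 0.123) and with library sizes alone (-1.06, adjusted p = 0.127). Plekhb1, a pleckstrin homology protein first described in photoreceptors and also found in myelin, stood at 2.92 to 4.26 CPM in uterus and 334 to 385 CPM in brain, at 1.01% of its brain level.

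**Figure D2:**
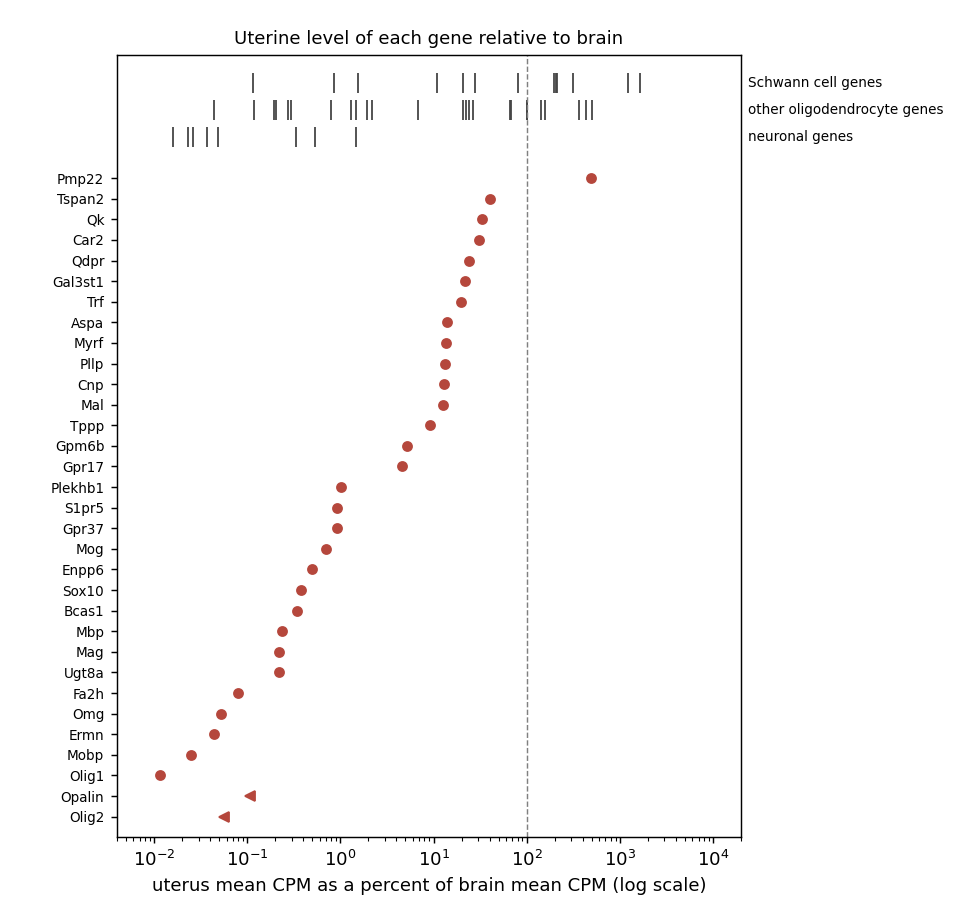
Uterus mean CPM as a percent of brain mean CPM on a log axis for the 32 genes (red circles), with left-pointing triangles at the upper limit for Opalin and Olig2, which had 0 uterine counts, and grey ticks for neuronal, other oligodendrocyte and Schwann cell genes above; the dashed line is 100%. The members spread from 0.0117% for Olig1 to 40.1% for Tspan2, and Pmp22 alone lies past 100%.

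Of 4 small membrane proteins with several membrane spans, 3 were higher in brain, with a median over the 4 of -2.94, and they held the member that was higher in uterus. Pmp22, the peripheral myelin protein whose dosage matters for peripheral nerves and which fibroblasts and epithelial cells also make (ENSMUSG00000018217, chromosome 11, 63128982 to 63159547), stood at 168, 149.9, 173 and 145 CPM in uterus and 32.4, 31.6, 33.3 and 30.9 CPM in brain. The lowest uterus library lay above 4 times the highest brain library, and the log2 fold change was 2.31 ± 0.07 (edgeR adjusted p = 2.96e-10). Its relatives Emp1, Emp2 and Emp3 were higher in uterus as well. Emp1 stood at 299 ± 27.6 CPM in uterus and 4.60 ± 0.292 in brain (6.02 ± 0.09), Emp2 at 104 ± 10.8 CPM in uterus and 24.5 ± 2.11 in brain (2.08 ± 0.09), and Emp3 at 80.6 ± 5.69 CPM in uterus and 2.52 ± 0.298 in brain.

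Gpm6b, a membrane glycoprotein of glia and neurons (ENSMUSG00000031342, chromosome X, 166238911 to 166388988), stood at 58.1, 50.2, 65.6 and 70.5 CPM in uterus and 1238, 1148, 1132 and 1199 CPM in brain (-4.27 ± 0.11). Its uterine level was 5.18% of brain. Its relative Gpm6a, a protein of neurons, stood at 8.84 ± 2.97 CPM in uterus and 1408 ± 34.3 in brain (-7.32 ± 0.24).

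Mal, a MARVEL-domain protein of glycolipid-rich membranes that also serves apical transport in epithelia (ENSMUSG00000027375, chromosome 2, 127633226 to 127656695), stood at 45.5, 43.7, 33.2 and 41.2 CPM in uterus and 327, 320, 299 and 346 CPM in brain (-2.98 ± 0.10). Its relative Mal2 was at 17.2 ± 4.75 CPM in uterus and 161 ± 6.46 in brain. Pllp, another MARVEL protein, had 0.913 to 1.49 CPM in uterus and 7.31 to 9.25 CPM in brain (-2.90 ± 0.18). An antisense gene overlaps 54.2% of the exon length of Pllp, and the strand setting of the counting is not given in the sources used here, so the level of Pllp is uncertain.

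All 4 enzymes of myelin lipids were higher in brain, with a median log2 fold change of -8.22, and only Gal3st1 was detected in uterus. Ugt8a, which makes galactosylceramide, the major myelin glycolipid (ENSMUSG00000032854, chromosome 3, 125865271 to 125938619), had 4, 12, 10 and 16 counts in uterus, 0.252 ± 0.113 CPM, and 115 ± 10.3 CPM in brain (-8.80 ± 0.18, edgeR adjusted p = 2.75e-11). Fa2h, which hydroxylates the fatty acids of these lipids, had 6 counts in uterus library 3, 0 in the other 3, and 44.3, 46.7, 49.5 and 51.1 CPM in brain. Its log2 fold change of -10.24 became -13.96 without uterus library 3, which leaves no uterine count and makes the fitted value no bound. Gal3st1, which adds sulfate to galactosylceramide to give sulfatide, stood at 3.95, 2.61, 2.97 and 2.77 CPM in uterus and 13.2, 14.0, 14.2 and 14.7 CPM in brain (-2.19 ± 0.14).

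The uterine level of Gal3st1 was thus 21.9% of brain, against 0.219% for Ugt8a, the enzyme 1 step before it. Enpp6, a choline phosphodiesterase of newly formed oligodendrocytes, had 7, 2, 2 and 2 counts in uterus and 14.9 to 18.7 CPM in brain, and its log2 fold change of -7.63 moved to -8.30 without uterus library 1. General sphingolipid genes went both ways. Of 15 tested, 6 were higher in brain, 8 were higher in uterus and 1 did not pass. Among all genes tested, 43.6% were higher in brain and 43.5% in uterus. The median log2 fold change of the 15 was 0.26 beside 0.01 for all genes. Sgms2, a sphingomyelin synthase, stood at 245 ± 134 CPM in uterus and 9.13 ± 0.941 in brain (4.75 ± 0.39), while Galc, the lysosomal enzyme that breaks down galactosylceramide, stood at 20.3 ± 2.85 CPM in uterus and 35.4 ± 1.69 in brain (-0.81 ± 0.09).

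All 4 metabolic members were detected in uterus and higher in brain, with a median log2 fold change of -2.20. Car2, the cytosolic carbonic anhydrase of oligodendrocytes, red cells and many epithelia (ENSMUSG00000027562, chromosome 3, 14886273 to 14900770), stood at 74.7, 55.7, 58.0 and 107 CPM in uterus and 216, 243, 250.1 and 242 CPM in brain (-1.69 ± 0.19, edgeR adjusted p = 1.03e-05). Uterus library 4 held the highest level. The summed level of 12 epithelial genes was 876, 933, 948 and 1105 CPM in uterus libraries 1 to 4, also highest in library 4. Uterus library 1, with the next highest level of Car2, had the lowest sum. The part of epithelial genes in the Car2 level was not tested. A membrane-bound relative, Car12, was higher in uterus, at 400.1 ± 168 CPM, than in brain, at 29.4 ± 3.76 (3.77 ± 0.30).

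Qdpr, which recycles the cofactor tetrahydrobiopterin, was the most even member in uterus, at 31.9, 30.4, 31.1 and 31.8 CPM, against 127, 132, 139 and 129 CPM in brain (-2.07 ± 0.05). An antisense gene overlaps 18.6% of its exon length. Aspa, which cleaves N-acetylaspartate to supply acetate for myelin lipids, stood at 3.60, 2.70, 4.61 and 5.29 CPM in uterus and 27.5, 30.1, 27.1 and 29.9 CPM in brain (-2.82 ± 0.18). Trf, the iron carrier transferrin, stood at 2.79, 2.12, 2.71 and 1.56 CPM in uterus and 9.81 to 13.7 CPM in brain (-2.33 ± 0.20). The level of Trf is uncertain in both organs, because 63.5% of its exon length is shared on the same strand with the annotated gene Gm20425, which held 0 counts in uterus and 1 in brain, and how reads in shared exons were counted is not given in the sources used here.

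All 3 receptors were higher in brain, with a median log2 fold change of -6.76, and only Gpr17 was detected in uterus. Gpr17, a receptor of committed progenitors that declines as they mature (ENSMUSG00000052229, chromosome 18, 31942997 to 31949636), stood at 3.75, 3.86, 2.10 and 3.05 CPM in uterus and 52.4, 80.4, 65.2 and 77.6 CPM in brain (-4.43 ± 0.20, edgeR adjusted p = 9.24e-09). It was the least even member in brain, with a coefficient of variation of 18.7%, and brain library 1 was the lowest. Exons of Lims2, on the opposite strand, cover 3.6% of its exon length.

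Gpr37, a receptor that restrains oligodendrocyte differentiation in mice, stood at 0.805, 0.987, 0.304 and 0.792 CPM in uterus and 77.4, 77.2, 83.2 and 78.7 CPM in brain (-6.76 ± 0.19). S1pr5, the sphingosine-1-phosphate receptor of oligodendrocytes and natural killer cells, had 0, 6, 21 and 2 counts in uterus and 18.8, 19.6, 21.8 and 18.2 CPM in brain. Its log2 fold change of -6.77 ± 0.51 moved to -8.19 without uterus library 3, which held most of its counts. S1pr2, a relative of S1pr5, was higher in uterus, at 44.1 ± 2.93 CPM against 2.95 ± 0.191 in brain (3.90 ± 0.08), while S1pr1 was higher in brain, at 54.0 ± 1.85 CPM in uterus and 149.7 ± 4.58 in brain (-1.47 ± 0.05).

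Levels of different genes compare only per length, so counts were also scaled to annotated exon length and to the same sum in every library (TPM). In uterus the order of the members was led by Pmp22 at 243 ± 25.0 TPM, ranked 521 of the 19808 genes with a length, and Car2 at 108 ± 30.0. Qdpr followed at 62.9 ± 2.23 TPM, and Cnp, Mal and Tspan2, at 53.3 ± 5.66, 52.9 ± 6.55 and 52.7 ± 2.94 TPM, did not differ beyond their spread. In brain Mbp led at 1341 ± 51.4 TPM, rank 46, followed by Gpm6b at 756 ± 62.7 and Mobp at 641 ± 28.4. Mal and Cnp, at 418 ± 38.1 and 405 ± 20.2 TPM in brain, did not differ beyond their spread either. The lowest members in brain were Enpp6 at 9.10 ± 0.738 TPM and Trf at 12.5 ± 1.83, the uncertain value named above.

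Libraries of an organ differed less in brain than in uterus, for the members and for genes in general. Over the 16 members detected in uterus the median coefficient of variation was 14.0%, and over all 32 in brain it was 6.11%. Over all genes detected in the organ it was 8.11% in uterus and 6.30% in brain. The medians compared cover different sets of genes, and at low counts counting error adds to the variation. Of the members detected in uterus, Myrf, Car2, Aspa, Gpr17 and Trf varied most, at 34.8%, 31.9%, 28.0%, 25.3% and 25.1%, and no single library was highest for all 5. In uterus, library 2 was the lowest of the 4, or tied for lowest, for 15 of the 32 members. Of the members, 5 had 0 counts there, most of them also at 0 in other libraries. The median deviation of the log2 levels of library 2 from the organ mean was -0.06. In brain, library 1 was the lowest of the 4 for 13 of the 32 members, among them Mbp, Mag, Mog and Cnp, and its median deviation was -0.04.

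**Figure D3:**
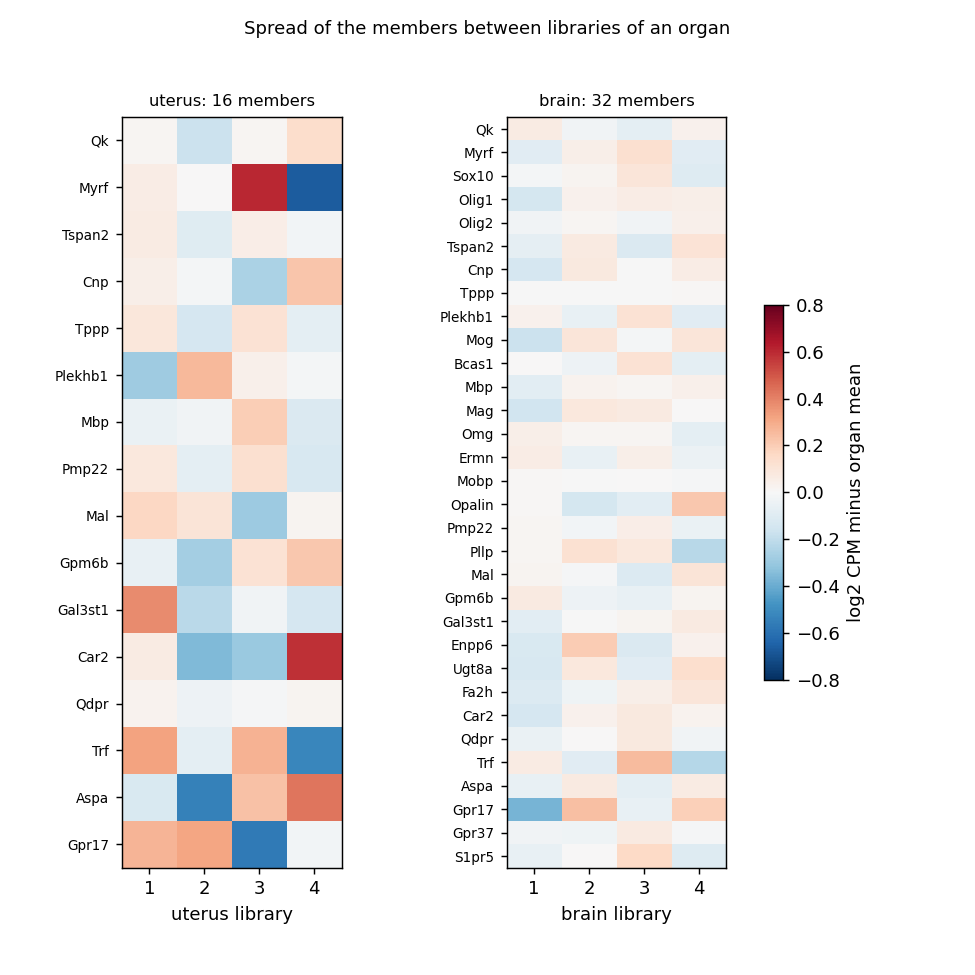
Log2 CPM of each member minus its mean over the 4 libraries of the organ, for the 16 members detected in uterus (left) and the 32 in brain (right); red is above and blue below the organ mean. The uterus panel has the stronger colours, with Myrf high in library 3 and low in library 4, and in brain Gpr17 is low in library 1.

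Other genes of the lineage, taken from lists that leave out the members, were also mostly higher in brain, with exceptions. Among all genes tested, 43.6% were higher in brain and 43.5% in uterus by the same rule. Of 25 other genes of mature oligodendrocytes, 18 were higher in brain and 5 in uterus, and Slc44a1 (117 CPM in uterus and 115 in brain) and Padi2 (38.2 ± 41.6 CPM in uterus and 37.9 ± 6.43 in brain) did not pass, and the median log2 fold change was -2.26. Uterus library 4 set the uterine mean of Padi2, with 4292 counts against 474 to 1043 in the other 3. Without it Padi2 was higher in brain (log2 fold change -1.10, edgeR adjusted p = 0.000936), as were 19 of the 25 genes. Without any other library 16 to 18 were, and 16 with upper-quartile or library-size scaling. Anln (-0.54, edgeR adjusted p = 0.0457) lost its call without uterus library 1 or any 1 brain library. Tmem125 (-0.6, edgeR adjusted p = 0.0246) lost its call without uterus library 3, brain library 2 or brain library 3. Gjc3, a connexin of myelin, stood at 0.0487 ± 0.0563 CPM in uterus and 110.2 ± 4.25 in brain, and Cntn2, an adhesion protein of the juxtaparanode, at 0.363 ± 0.371 CPM in uterus and 306 ± 18.6 in brain. The log2 fold change of Cntn2 was -9.70, and -10.39 without uterus library 4. Toward uterus stood Cd9, a tetraspanin of many cells, at 159 ± 11.1 CPM in uterus and 31.5 ± 0.913 in brain (2.33 ± 0.06), and Gsn, the actin-severing gelsolin, at 391 ± 36.5 CPM in uterus and 78.7 to 105 in brain (2.12 ± 0.10).

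Of 14 genes of oligodendrocyte progenitors, 10 were higher in brain and 4 in uterus, beside 43.6% and 43.5% of all genes tested. The median log2 fold change of the 14 was -4.97. Neu4, a sialidase, had 0 uterine counts and 11.9 ± 1.32 CPM in brain, and Lhfpl3 stood at 0.0542 ± 0.0411 CPM in uterus and 48.0 ± 3.94 in brain. Genes toward uterus included ones that stromal cells and pericytes also make. Pdgfra, a receptor of platelet-derived growth factor, stood at 354 ± 26.5 CPM in uterus and 63.8 ± 2.25 in brain (2.47 ± 0.07), and Cspg4, a proteoglycan, at 52.4 ± 3.52 CPM in uterus and 24.6 ± 1.07 in brain (1.09 ± 0.06). Vcan, a matrix proteoglycan, stood at 261 ± 28.1 CPM in uterus and 36.3 ± 2.68 in brain (2.84 ± 0.09).

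Schwann cell genes were measured because peripheral nerves reach the uterus. Of 13 tested, 6 were higher in brain and 5 in uterus, near the shares of all genes tested, 43.6% and 43.5%. The other 2 did not pass, among them Egr2 (5.46 ± 1.99 CPM in uterus and 6.72 ± 4.14 in brain). The median log2 fold change of the list was -0.30. The log2 fold change of Egr2 was -0.30, and 0.05 without brain library 2. Pmp2 and Gfra3 were too low to be tested. The whole list summed to 125 to 158 CPM in uterus and 315 to 336 CPM in brain. In brain S100b, a calcium-binding protein that astrocytes and oligodendrocytes also make, was the largest part, at 0.253 ± 0.106 CPM in uterus and 221 ± 13.9 in brain (-9.74 ± 0.15). Fabp7, a fatty-acid-binding protein also made by other glia, stood at 0.273 ± 0.304 CPM in uterus and 31.6 ± 7.15 in brain, with a log2 fold change of -6.81 that was -7.95 without uterus library 4. Cdh19, a cadherin, stood at 0.377 ± 0.228 CPM in uterus and 24.7 ± 1.90 in brain (-6.02 ± 0.30). In uterus the list's largest parts were Erbb3, a neuregulin receptor, at 60.0 ± 14.8 CPM, and Ngfr, a neurotrophin receptor, at 54.6 ± 20.5, which epithelial and stromal cells can also make; the part of Schwann cells in the uterine levels of Mbp, Sox10 and Pmp22 was not tested.

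Of 27 family relatives of the members that could be tested, 13 were higher in brain, 11 in uterus and 3 did not pass. These shares lie near those of all genes tested, 43.6% toward brain and 43.5% toward uterus. The median log2 fold change of the relatives was -0.44. Among those 3 were Sox9 and Ltf, a transferrin relative at 7.55 ± 4.55 CPM in uterus and 2.20 ± 3.29 CPM in brain. Brain library 2 held 7.13 CPM of Ltf and the other 3 held 0.254 to 0.890 CPM. Without it Ltf was higher in uterus (log2 fold change 3.77 in place of 1.77, edgeR adjusted p = 0.000443 in place of 0.0855). Car3, counted as higher in uterus (0.86, edgeR adjusted p = 0.0371), lost that call without uterus library 3 or without brain library 1, 2 or 3.

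**Figure D4:**
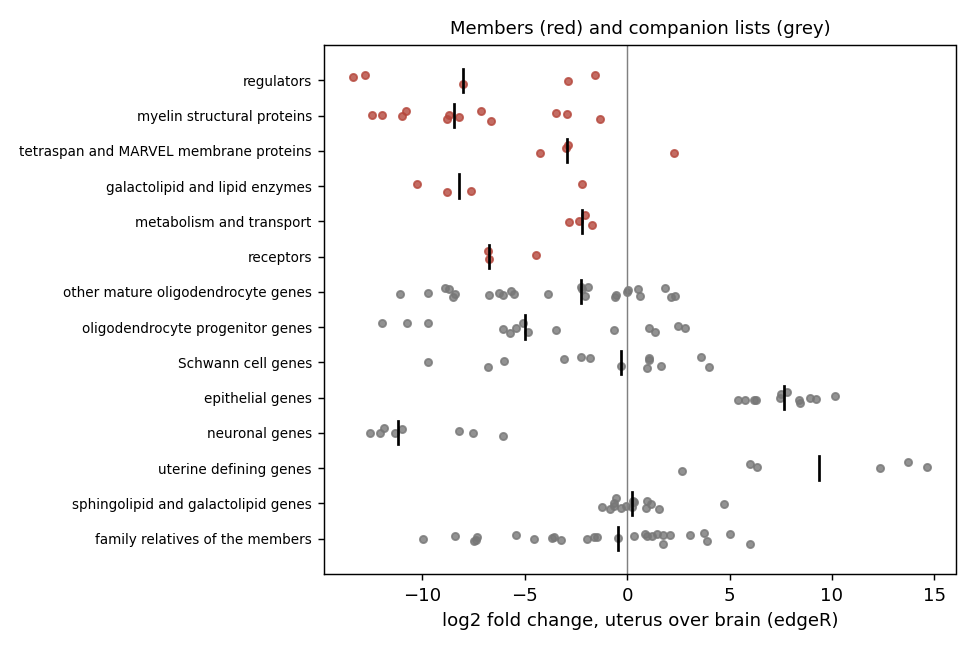
Log2 fold change (uterus over brain, edgeR) of each tested gene, with the members by role in red, the companion lists in grey and a black bar at each median; genes with 0 counts in an organ are drawn at their fitted value, which is no bound. Members lie left of 0 except Pmp22, while mature oligodendrocyte, progenitor, Schwann and family lists reach to both sides.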

How the data were processed

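Raw counts per gene were deposited by the authors for 8 libraries in 1 table with no normalization. Per the submitters' processing notes, the tools were FastQC, HISAT2 2.0.3, featureCounts and edgeR, with GRCm38.p5. The sources used here do not give the gene annotation, whether strand was used in counting, or how reads mapping to several genes were treated. Per the labels' protocols, the kit was stranded and removed ribosomal RNA.

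Genes were filtered with filterByExpr by organ, which kept 16074, and uterus was compared with brain with edgeR 4.0.16 (R 4.3.3; quasi-likelihood F test, two-sided, TMM scaling, Benjamini-Hochberg over all genes tested, 0.05) and with glmTreat against a 2-fold change. Log2 fold changes are uterus over brain, and SE was derived from the F statistic and the fold change without a prior count. Where an organ had 0 counts, the fold is a lower bound against 3 counts over its 4 libraries. CPM means carry the SD over 4 libraries. Coordinates, exon lengths and overlaps came from GENCODE M21 (GRCm38), which held 19808 of the 19884 identifiers. A BLAST+ 2.17.0 search of the members' transcripts at 98% identity over 150 nt found only the annotated overlaps. Intervals and count limits cover counting error only, since the labels name no molecular identifiers.

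The members and the lists were chosen with earlier results of these data known. All members are named; the rule for companion lists takes up to 3 called genes per direction, ranked by change, that reach 10 CPM in either organ, and relatives stand beside their member. Other names were chosen after their values were seen. Some genes of the companion lists are counted but not reported by name here. The procedure was tested on simulated counts. Other settings tried were scaling by RLE, by upper quartile or by library size, other low-count filters, DESeq2 1.42.0, limma-voom (limma 3.58.1), a block for replicate number, other detection limits, and leaving out each library.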

Additional observations from a re-analysis of the deposited data

Results flagged for a closer look

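For normally distributed values, chance sets 1 library apart by a gap above 0.829 of the range in about 1 in 20 sets of 4. That rate need not hold at few counts. Among 62 sets of 4 libraries (each member in each organ, where the values differed), 5 had a library that far from the other 3. In uterus these were Olig1 at 0.0503 CPM in library 1, Fa2h at 0.152 CPM in library 3, Enpp6 at 0.176 CPM in library 1 and Mobp at 0.606 CPM in library 4, each the highest of its 4 and each resting on 2 to 26 counts. In brain Olig1 was low in library 1, at 97.7 CPM, where the other 3 libraries held 110.0 to 112 CPM. In uterus Olig1 and Fa2h had counts in 1 library only, so their gap was the whole range by construction. No explanation of the 5 flagged values was tested.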

How the results depend on the processing

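No member changed direction or lost its call at an adjusted p of 0.05 under RLE, upper-quartile or library-size scaling, without a low-count filter, with DESeq2 or limma-voom, with a block for replicate number, or without any 1 library. Requiring at least 10 counts in all 8 libraries left 21 of the 32 members, because those with few uterine counts drop out; 20 of them were higher in brain, also against a 2-fold change, and the median log2 fold change of the 21 was -2.96, against -6.69 for all 32. The same filter left 11 of the other mature oligodendrocyte genes, 5 of the progenitor genes, 0 of the Schwann cell genes and 4 of the neuronal genes as higher in brain, and 4 of the epithelial and 3 of the uterine defining genes as higher in uterus, again by its construction. With upper-quartile or library-size scaling the median over all genes was 0.27 in place of 0.01, the members' median was -6.44, and 30 members were past 2-fold toward brain, Tspan2 being lost. Calls over all genes leaned to uterus under both: upper-quartile scaling called 8182 genes toward uterus and 5966 toward brain, library size alone called 8179 toward uterus and 5949 toward brain, and TMM called 6988 toward uterus and 7001 toward brain. Leaving out a library gave 31 members higher in brain and 1 in uterus each time. Deviations of same-numbered libraries of the organs correlated at -0.05, 0.00, 0.08 and 0.07 across genes. Differently numbered libraries gave -0.08 to 0.1. Same-numbered libraries did not stand out, but organs of 1 mouse need not deviate alike, so whether they share a mouse stays unknown. With the replicate block 31 members were higher in brain and 1 in uterus. At few counts depth limits the uterine values, since 1 library can set the level of Olig1, Omg, Ermn, Fa2h, Enpp6 and S1pr5.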
